A study of Mus musculus with 4 samples.

Results

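Glutamate is the main excitatory transmitter of the cerebral cortex, and the genes described here encode the proteins that receive it, load it into vesicles and hold its receptors in place. AMPA, NMDA and kainate receptors are ion channels built from several subunits, and delta receptors are their relatives that bind synaptic organisers. Metabotropic receptors act through G proteins. Dlg, Shank and Homer proteins form the layered scaffold under the postsynaptic membrane: Dlg proteins bind receptor tails, Homer proteins bind group I metabotropic receptors, and Shank proteins join the layers. In the newborn cortex few synapses have formed, and the subunits in use differ from those of the adult, GluN2B being the typical NMDA partner before GluN2A takes over.

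The set held 38 genes, chosen by name and not by their values from the 55414 rows of the deposited gene table: 26 receptor genes of the Gria, Grik, Grin, Grid and Grm families, the vesicular glutamate transporter genes Slc17a6 and Slc17a7, and 10 scaffold genes (Dlg1 to Dlg4, Shank1 to Shank3 and Homer1 to Homer3). All 38 names matched a row. The study asked what the stress-activated kinase MKK7, encoded by Map2k7 and an activator of the JNK kinases, does in the developing cortex. It compared whole cerebral cortex of C57BL/6J mice on postnatal day 1 in 4 RNA-seq libraries: 2 labelled cKO (Mkk7flox/flox Emx1-Cre, replicates 2 and 3) and 2 labelled Control (Mkk7flox/flox, without the Cre, replicates 2 and 3). The floxed alleles are thus shared by both groups. Emx1-Cre acts in dorsal telencephalic progenitors and in their descendants, so cortical interneurons, blood vessels, microglia and most of the striatum lie outside its reach. Whether each library stands for its own animal or litter is not said in the labels.

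Library totals lay between 19421470 and 22511175 counts. Map2k7 itself stood at 47.9 and 48.2 counts scaled to a library of 1e+06 (CPM) in the libraries labelled cKO, against 38.4 and 30.4 CPM in those labelled Control (log2 fold change 0.48, SE 0.18, edgeR adjusted p = 0.428). Summed over the whole gene, the targeted transcript was not lower, reads outside a deleted part check nothing, and every direction below rests on the labels alone. By Xist and Ddx3y, cKO 3 was a male library and the rest were female. The markers of cortical excitatory neurons were all detected, and their summed level, in TPM, the authors' transcript level per length, which sums to 1e+06 in a library, was 944 and 1059 TPM in cKO 2 and cKO 3, against 732 and 882 TPM in Control 2 and Control 3. These sums include Emx1, the gene named in the Cre label, at 26.5 and 23.5 TPM in cKO 2 and cKO 3, against 16.9 and 13.9 TPM in Control 2 and Control 3. Markers of striatal neurons, which are not cortical cells, were also read in every library, with sums of 135 and 150 TPM in the libraries labelled cKO, against 431 and 316 TPM in those labelled Control. Choroid plexus markers split the libraries by replicate number rather than by genotype: they summed to 445 and 8.22 TPM in cKO 2 and cKO 3, against 1097 and 12.8 TPM in Control 2 and Control 3. Most of each sum was Ttr, at 429 and 7.35 TPM in cKO 2 and cKO 3, against 1067 and 10.1 TPM in Control 2 and Control 3. Of the other markers Kl, with few reads, was highest in Control 3 (27 counts).

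None of the 37 genes that could be tested passed the threshold of 0.05 in edgeR's quasi-likelihood test (adjusted p from 0.347 to 0.999) where 0.047% of all 17017 tested genes did (0.00588% higher and 0.0411% lower in cKO). DESeq2, which called 0.456% of its genes higher and 0.641% lower, called none of the 37, and neither did limma-voom. Before adjustment, 7 genes had a p below 0.05: Gria4 and Homer1 with higher values in the libraries labelled cKO, and 5 with lower ones, among them Grin1, Grm8, Grik4 and Grik2. These 7 were 18.9% of the 37, against 10.9% of all tested genes. On log2(TPM + 1) 2 genes had such a p and on log2(TPM + 0.1) 1 had, all lower, against 11.3% and 11.1% of all tested genes, and a model with the replicate number as a block gave 0 higher and 5 lower. By direction the 7 were 5.41% higher and 13.5% lower, against 5.28% and 5.66% of all tested genes. The 37 fold changes were divided almost evenly, with 19 positive and 18 negative (50.2% of all tested genes were negative), and their median log2 fold change was 0.0013, against -0.0021 over all tested genes. The groups' CPM did not overlap for 18 of the 37 (48.6%), against 44.1% of all tested genes. Of these, 8 were higher and 10 lower in the libraries labelled cKO, where 22% and 22.2% of all tested genes were. A gene was tested when its counts passed edgeR's default filter on low counts, which only Grm6 missed.

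**Figure D1:**
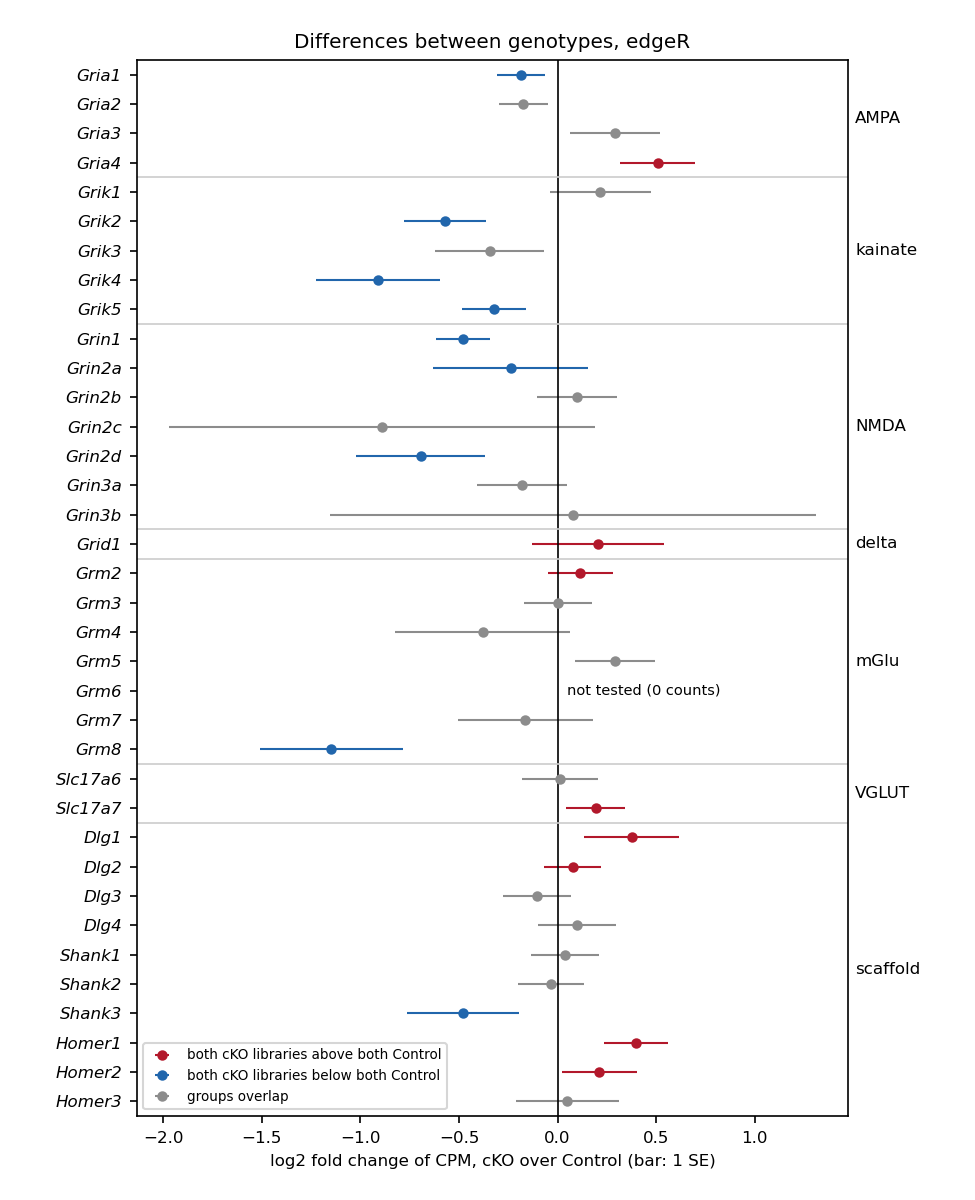
Log2 fold change of CPM, cKO over Control, for 35 of the 37 tested genes by receptor or scaffold group (points), with 1 standard error (bars, n = 2 libraries per group). Red points are genes with both cKO libraries above both Control libraries, blue points the reverse and grey points genes whose groups overlap; the values run from -1.15 (Grm8) to 0.51 (Gria4), and none passed the threshold.

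Levels are compared between genes in TPM, which are per transcript length. Gria2, whose subunit makes AMPA receptors impermeable to calcium once its RNA is edited, was the most abundant of the 38 in TPM, at 62.3 and 76.2 TPM in cKO 2 and cKO 3, against 86.3 and 73.0 TPM in Control 2 and Control 3. Its lowest library lay above the highest library of the next gene in order, Slc17a7 (47.8 TPM). From there down to Grin3b each gene's range over the 4 libraries overlapped that of the next, so the order of neighbours is not resolved by these libraries. Slc17a7, Grin2b, Grin1, Grm3, Grik5 and Gria1 followed with means over the 4 libraries between 29.9 and 42.5 TPM. At the other end Grin2c, Grin2a and Grin3b averaged 0.717, 0.710 and 0.256 TPM. Grm6, the receptor of retinal ON bipolar cells, had 0 counts in every library. A count of 0 allows up to 3 counts in a library, or between 0.131 and 0.158 CPM, and this limit covers counting error only.

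**Figure D2:**
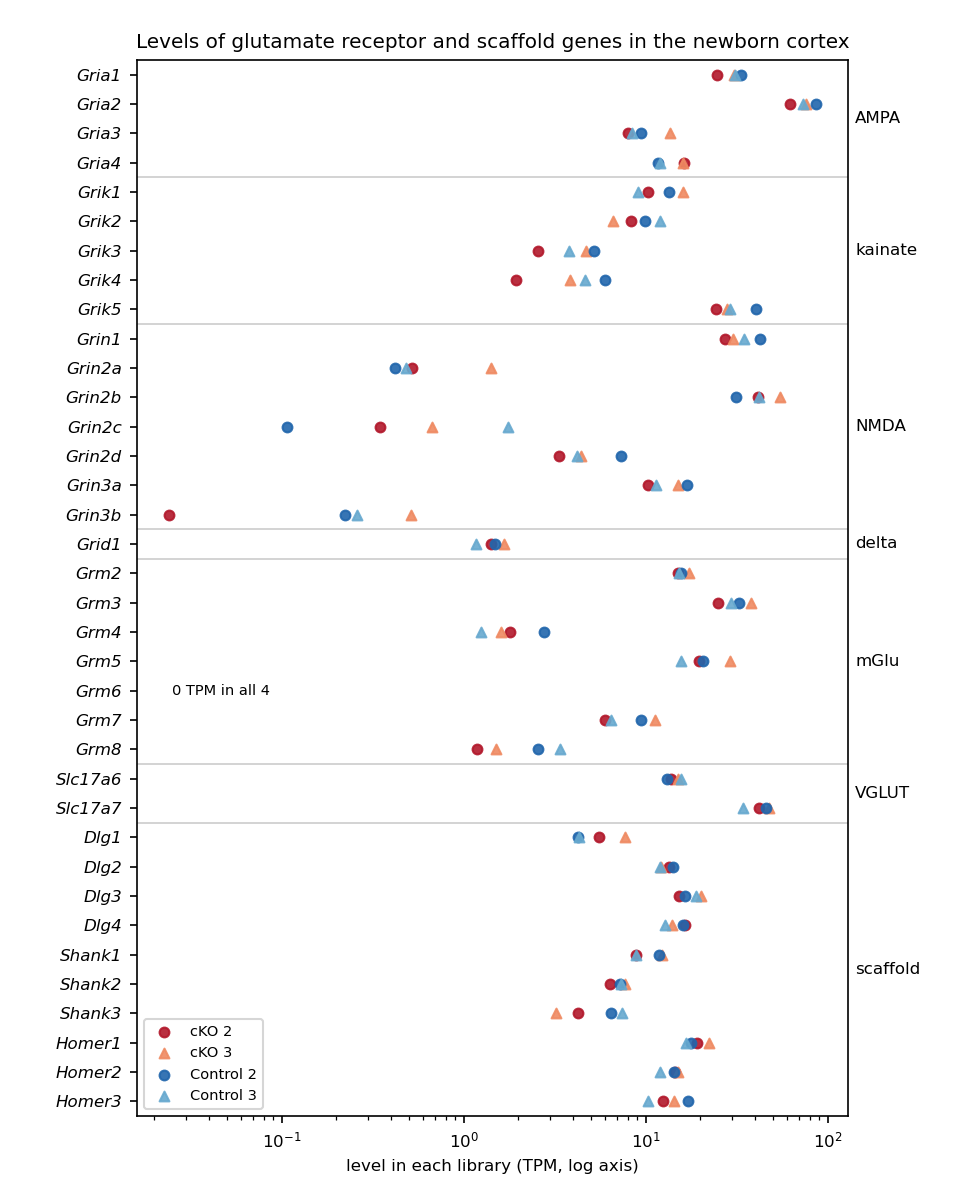
Level of 36 of the 38 genes in TPM on a log axis, with 1 point per library (red and orange for cKO 2 and cKO 3, dark and light blue for Control 2 and Control 3). Gria2 lies highest, between 62.3 and 86.3 TPM, Grin2a and Grin2c lie at or below 1.74 TPM, and Grm6 has 0 TPM in all 4.

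Among the 4 AMPA receptor subunits Gria4 had the largest log2 fold change. Gria4 (chromosome 9, 4417896 to 4796234, GRCm39), which encodes GluA4, a subunit of fast-gating receptors, stood at 34.3 and 30.9 CPM in cKO 2 and cKO 3, against 22.8 and 23.0 CPM in Control 2 and Control 3. The groups did not overlap, and the log2 fold change was 0.51 (SE 0.19, edgeR adjusted p = 0.425). Gria1, which encodes GluA1, stood at 115 and 126 CPM in the libraries labelled cKO, against 141 and 133 CPM in those labelled Control (log2 fold change -0.19, SE 0.12). Gria2 stood at 209 and 227 CPM in the libraries labelled cKO, against 264 and 227 CPM in those labelled Control (log2 fold change -0.17, SE 0.13), with cKO 3 and Control 3 almost equal. Gria3 lies on the X chromosome, and its highest value was in the male library: 33.4 and 49.8 CPM in cKO 2 and cKO 3, against 36.2 and 31.9 CPM in Control 2 and Control 3. The make-up of the family can be read within each library without scaling between libraries. Gria4 held 14.7% and 11.8% of the summed AMPA subunit TPM in cKO 2 and cKO 3, against 8.34% and 9.59% in Control 2 and Control 3. The share of Gria2 was 56.0% and 55.8% in the libraries labelled cKO, against 61.3% and 58.6% in those labelled Control. These levels depend on the length assigned to each gene. With CPM per kilobase of the deposited length, Gria2 held 37.5% and 36.6% in cKO 2 and cKO 3, against 41.0% and 38.9% in Control 2 and Control 3. By that measure Gria1 held 38.8% and 37.9% in the libraries labelled cKO, against 41.0% and 42.7% in those labelled Control, so Gria2 did not lead the family. The shares of Gria4 and Gria2 separated the groups by both measures. No test was run on shares, and with 2 libraries against 2 an exact permutation test cannot give a two-sided p below 0.333.

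Of the 5 kainate receptor subunits 4 had a negative fold change. Grik4 (chromosome 9, 42429431 to 42855789), which encodes the high-affinity subunit GluK4, stood at 6.48 and 9.55 CPM in cKO 2 and cKO 3, against 17.3 and 12.9 CPM in Control 2 and Control 3. The log2 fold change was -0.91 (SE 0.31, edgeR adjusted p = 0.399). Grik2 (chromosome 10, 48970929 to 49664862), which encodes the pore-forming subunit GluK2, stood at 23.7 and 19.9 CPM in the libraries labelled cKO, against 29.4 and 35.3 CPM in those labelled Control (log2 fold change -0.57, SE 0.21, edgeR adjusted p = 0.421). For both genes each library labelled cKO lay below each labelled Control. Grik5, which encodes the other high-affinity subunit GluK5, also did not overlap, but by a narrow gap: 65.4 and 65.1 CPM in the libraries labelled cKO, against 91.8 and 71.4 CPM in those labelled Control (log2 fold change -0.32, SE 0.16). Grik3 and Grik1, which encode GluK3 and GluK1, overlapped between groups, with log2 fold changes of -0.34 (SE 0.28) and 0.22 (SE 0.26). Grik5 was the most abundant of the 5 and held 51.3% and 47.2% of the kainate subunit TPM in cKO 2 and cKO 3, against 54.1% and 49.8% in Control 2 and Control 3. The share of Grik1 was 21.8% and 27.2% in the libraries labelled cKO, against 17.8% and 15.5% in those labelled Control.

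Grin1 had the smallest p of the 37. Grin1 (chromosome 2, 25181193 to 25209199) encodes GluN1, the subunit that every NMDA receptor needs, and it stood at 77.6 and 69.8 CPM in cKO 2 and cKO 3, against 108 and 97.5 CPM in Control 2 and Control 3. The groups did not overlap, and the log2 fold change was -0.48 (SE 0.14, edgeR adjusted p = 0.347), with values between -0.55 and -0.41 when single libraries were left out. Those refits use the same libraries that gave Grin1 its small p, so they are no independent support. Grin2b, which encodes the GluN2B partner of the immature brain, stood at 60.4 and 89.3 CPM in the libraries labelled cKO, against 74.2 and 65.7 CPM in those labelled Control (log2 fold change 0.10, SE 0.20). Both libraries labelled cKO thus lay on opposite sides of the Control pair. Grin2d, which encodes GluN2D, stood at 9.27 and 13.7 CPM in the libraries labelled cKO, against 23.0 and 14.2 CPM in those labelled Control (log2 fold change -0.69, SE 0.33). The gene Kdelr1 overlaps Grin2d on the other strand at a mean of 44.1 CPM, and reads of overlapping genes cannot be told apart without strand. Grin3a, which encodes GluN3A, a subunit that lowers calcium entry and is typical of young neurons, stood at 59.9 and 76.0 CPM in cKO 2 and cKO 3, against 93.4 and 60.7 CPM in Control 2 and Control 3, and the groups overlapped. Grin3b and Grin2c were barely read. The gene Tmem259 overlaps Grin3b on the other strand at a mean of 29.3 CPM, and their reads cannot be told apart there without strand. Grin2c had 21 and 42 counts in the libraries labelled cKO, against 6 and 102 counts in those labelled Control, so the libraries labelled Control differed more from each other than the group means did.

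Of the GluN2 subunits, Grin2b was read far above Grin2a in every library. In TPM, Grin2b was read at 41.3 and 54.5 in cKO 2 and cKO 3, against 31.6 and 42.2 in Control 2 and Control 3, while Grin2a was read at 0.523 and 1.41 in the libraries labelled cKO, against 0.421 and 0.484 in those labelled Control. Grin2b held 90.7% and 89.3% of the GluN2 TPM in cKO 2 and cKO 3, against 80.1% and 86.7% in Control 2 and Control 3. The share of Grin2d was 7.37% and 7.23% in the libraries labelled cKO, against 18.5% and 8.68% in those labelled Control, where Control 2 stood apart. These shares turn on the short length that the quantification assigned to Grin2b. With CPM per kilobase of the deposited length, Grin2b held 53.3% and 53.9% in cKO 2 and cKO 3, against 40.2% and 40.4% in Control 2 and Control 3. Grin2d then held 36.2% and 36.7% in the libraries labelled cKO, against 55.2% and 38.7% in those labelled Control, and lay above Grin2b in Control 2. Grin2a is a case where the unit turns the direction: in CPM both libraries labelled cKO (3.95 and 4.03) lay below both labelled Control (4.28 and 5.13), and in TPM both lay above.

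**Figure D3:**
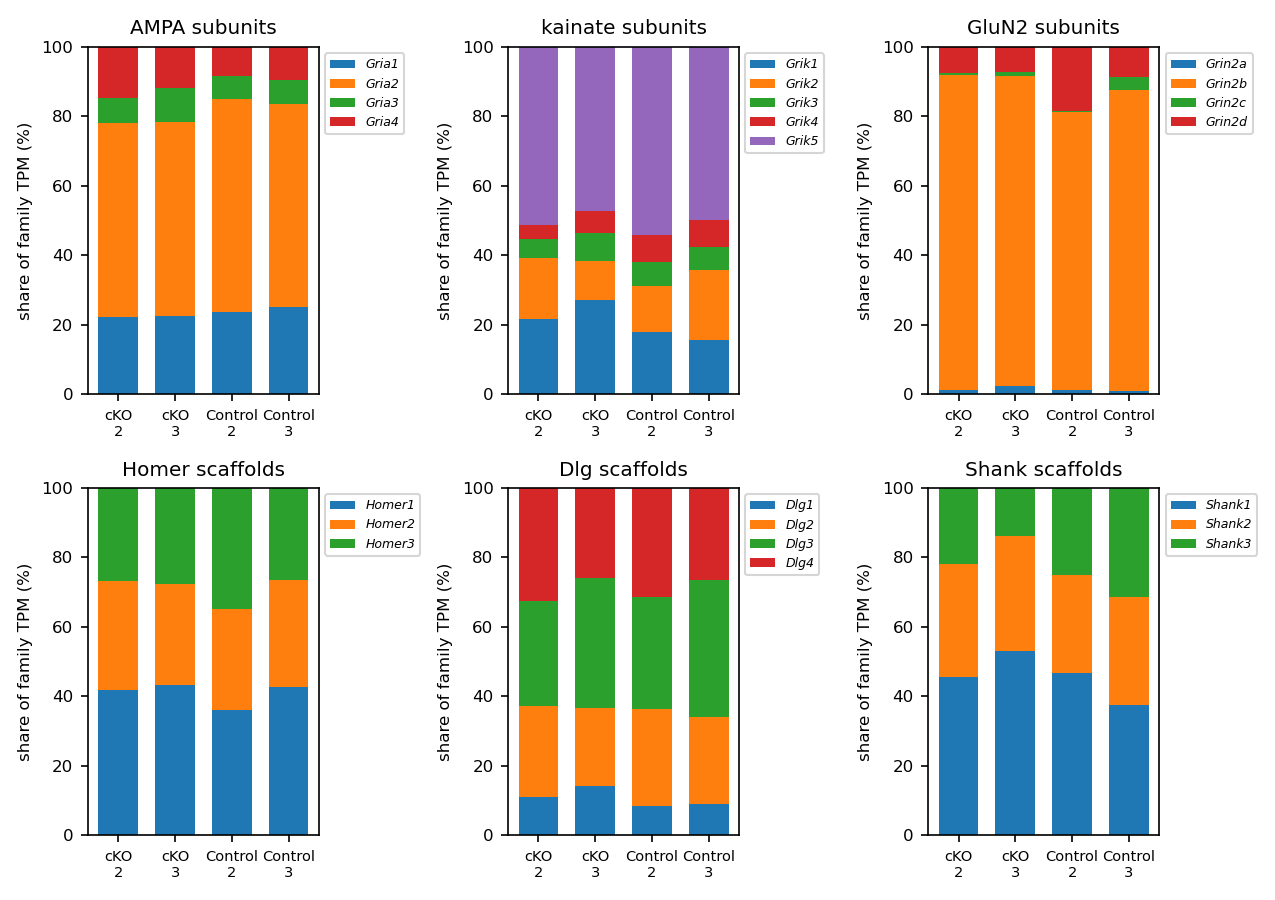
Share of each gene in the summed TPM of its family, in percent, for cKO 2, cKO 3, Control 2 and Control 3 (bars, left to right), in 6 families. Grin2b holds between 80.1% and 90.7% of the GluN2 family in TPM (40.2% to 53.9% by deposited length), Gria4 takes a larger part of the AMPA family in both cKO libraries than in both Control libraries, and Shank3 a smaller part of the Shank family (group means differ by -10.4 percentage points in TPM and by -2.84 by deposited length).

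Grid1, a delta receptor gene, stood at 6.69 and 6.87 CPM in the libraries labelled cKO, against 6.52 and 5.23 CPM in those labelled Control (log2 fold change 0.21, SE 0.33).

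Of the 7 metabotropic receptor genes with counts, Grm8 had the only log2 fold change beyond 1 in size among all 37 tested genes. That was 2.70% of the 37, against 9.73% of all 17017 tested genes. Grm8 (chromosome 6, 27275118 to 28135177) encodes mGlu8, a group III receptor that acts mostly on transmitter release from nerve endings. It rests on few reads, with 65 and 70 counts in cKO 2 and cKO 3, against 138 and 145 counts in Control 2 and Control 3. It stood at 3.42 and 3.07 CPM in cKO 2 and cKO 3, against 7.03 and 7.36 CPM in Control 2 and Control 3 (log2 fold change -1.15, SE 0.36, edgeR adjusted p = 0.38). Within each group the libraries were close, and leaving out single libraries gave values between -1.23 and -1.07. Those refits use the same libraries that gave Grm8 its large value, so they are no independent support. The most abundant of the family was Grm3, a group II receptor of neurons and astrocytes, at 25.0 and 37.8 TPM in cKO 2 and cKO 3, against 32.8 and 29.4 TPM in Control 2 and Control 3. Grm5, which encodes the group I receptor mGlu5 that Homer proteins bind, stood at 71.1 and 95.4 CPM in the libraries labelled cKO, against 77.5 and 58.5 CPM in those labelled Control (log2 fold change 0.29, SE 0.20), and the groups overlapped. Within the family's TPM its share did not overlap, at 27.0% and 28.1% in the libraries labelled cKO, against 23.2% and 20.9% in those labelled Control. Grm2, Grm4 and Grm7 had log2 fold changes of 0.12, -0.38 and -0.16, each smaller than its SE.

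Glutamate receptors are not confined to cortical excitatory neurons, and the levels of markers of other cells differed between the same libraries. All 14 striatal markers were on the negative side (median log2 fold change -1.82), as were 11 of 12 interneuron markers (median -0.39) and 6 of 8 astrocyte markers (median -0.51). Other cells went the other way: 7 of 8 meningeal fibroblast markers were positive (median 0.36), as were 5 of 7 markers of endothelial cells and pericytes (median 0.35). Of 12 cortical excitatory neuron markers 10 had a positive log2 fold change (median 0.28). The highest of the 12 was that of Emx1 (0.75), the gene named in the Cre label, and any part of the Cre allele in it was not tested. The interneuron markers summed to 1741 and 1527 TPM in cKO 2 and cKO 3, against 2093 and 1931 TPM in Control 2 and Control 3. Most of each interneuron sum was Npy and Sst. Npy overlapped between groups, at 1084 and 846 TPM in cKO 2 and cKO 3, against 1037 and 990 TPM in Control 2 and Control 3. Sst did not, at 397 and 408 TPM in the libraries labelled cKO, against 704 and 615 TPM in those labelled Control. The astrocyte markers summed to 1256 and 1539 TPM in the libraries labelled cKO, against 1814 and 1898 TPM in those labelled Control. Most of each astrocyte sum was Apoe, at 817 and 940 TPM in cKO 2 and cKO 3, against 1279 and 1349 TPM in Control 2 and Control 3. No marker of these lists was at 0 in every library. The part of these cells in the values of Grin1, Grik2, Grik4 and Grm8 was not tested, and in whole tissue fewer cells of a type and less RNA per cell cannot be told apart.

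**Figure D4:**
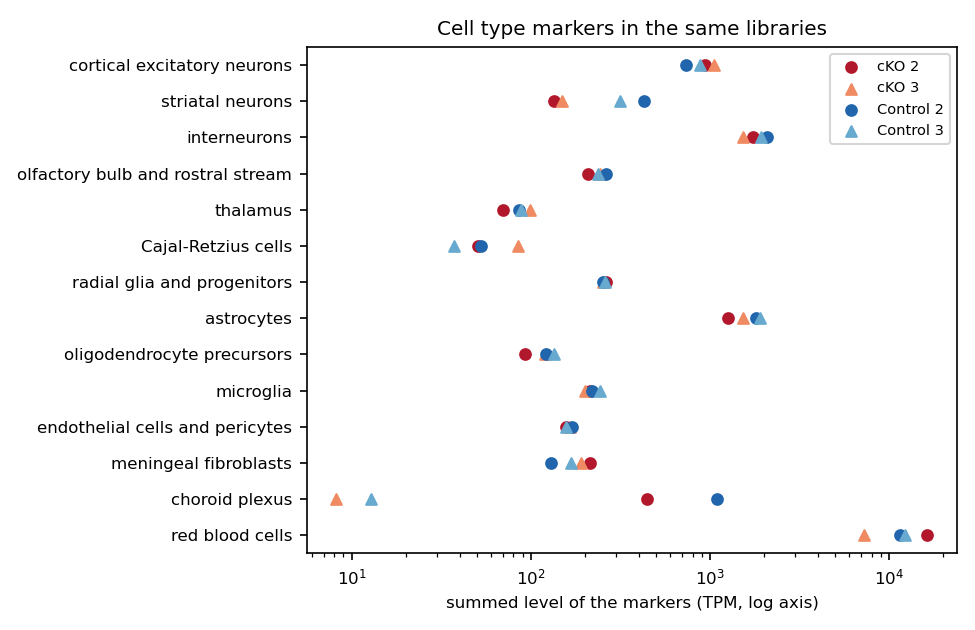
Summed TPM of the markers of 14 cell types or regions on a log axis, with 1 point per library (red and orange for cKO 2 and cKO 3, dark and light blue for Control 2 and Control 3). Striatal markers lie at 135 and 150 TPM in the cKO libraries and at 431 and 316 TPM in the Control libraries, and choroid plexus markers separate the libraries numbered 2 from those numbered 3.

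The vesicular transporters mark glutamatergic neurons, Slc17a7 (VGLUT1) mainly those of the cortex and Slc17a6 (VGLUT2) mainly those of the thalamus and many young neurons. Slc17a7 stood at 91.5 and 87.1 CPM in cKO 2 and cKO 3, against 86.4 and 69.9 CPM in Control 2 and Control 3. The groups were separated only by the small gap between cKO 3 and Control 2 (log2 fold change 0.19, SE 0.15). Slc17a6 stood at 37.1 and 41.6 CPM in the libraries labelled cKO, against 34.5 and 43.6 CPM in those labelled Control (log2 fold change 0.01, SE 0.19), the Control libraries enclosing the others. Slc17a7 held 75.3% and 76.1% of the summed TPM of both in cKO 2 and cKO 3, against 77.7% and 68.9% in Control 2 and Control 3.

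As for 12434 of all 17017 tested genes, the log2 fold changes of the 10 scaffold genes lay within 0.5 in size. The median of the 10 was 0.06. Of these 7 were positive, 8 with upper-quartile scaling, which turned Shank2, 5 on log2(TPM + 1), which turned Dlg2 and Homer3, and 6 on log2(TPM + 0.1). Leaving out single libraries gave 5 to 8 positive values. Homer1 (chromosome 13, 93436143 to 93541637), which encodes long scaffold forms and the short activity-induced form Homer1a, had the smallest p of these. It stood at 48.0 and 52.5 CPM in cKO 2 and cKO 3, against 38.3 and 37.9 CPM in Control 2 and Control 3 (log2 fold change 0.40, SE 0.16, edgeR adjusted p = 0.44). Homer2 also separated the groups, at 27.3 and 26.9 CPM in the libraries labelled cKO, against 23.5 and 23.3 CPM in those labelled Control (log2 fold change 0.21, SE 0.19). Homer3 overlapped (log2 fold change 0.05, SE 0.26). The gene Ddx49 overlaps Homer3 on the other strand at a mean of 58.6 CPM, and their reads cannot be told apart there without strand.

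Among the Dlg genes, Dlg1, which encodes SAP97, a carrier of GluA1, stood at 16.7 and 14.6 CPM in cKO 2 and cKO 3, against 12.4 and 11.7 CPM in Control 2 and Control 3 (log2 fold change 0.38, SE 0.24). Dlg4, which encodes PSD-95, the main scaffold of mature excitatory synapses, stood at 39.5 and 33.6 CPM in the libraries labelled cKO, against 37.8 and 30.5 CPM in those labelled Control (log2 fold change 0.10, SE 0.20). Dlg2 and the X-linked Dlg3, which encode PSD-93 and SAP102, had values of 0.08 (SE 0.14) and -0.10 (SE 0.17). In TPM the 3 genes Dlg2, Dlg3 and Dlg4 lay close together, with means over the 4 libraries of 12.9, 17.7 and 14.8 TPM, and Dlg1 lower at 5.44 TPM. Shank3, which encodes a master scaffold linked to the actin skeleton, had the most negative value of the 10 scaffold genes. It stood at 7.95 and 7.05 CPM in cKO 2 and cKO 3, against 10.7 and 10.2 CPM in Control 2 and Control 3 (log2 fold change -0.48, SE 0.28, edgeR adjusted p = 0.579). Shank1 and Shank2 had values of 0.04 (SE 0.17) and -0.03 (SE 0.17). The share of Shank3 in the Shank TPM was 21.8% and 13.9% in the libraries labelled cKO, against 25.1% and 31.4% in those labelled Control. With CPM per kilobase of the deposited length it was 8.86% and 7.01% in the libraries labelled cKO, against 10.3% and 11.2% in those labelled Control.

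A count divided by its TPM is proportional to the transcript length that the authors' quantification assigned to a gene. It shows where the assigned mix of long and short transcripts differed between libraries. Whether the transcripts themselves differed was not tested. Lengths were scaled so that the median gene equalled its deposited length, so they can be compared between libraries but are not true lengths. Of 35 genes with at least 50 counts in every library, 9 had a highest apparent length more than 1.2 times their lowest, against 23.5% of 12408 genes. The widest was Grin2a, at 12687 and 5380 bases in cKO 2 and cKO 3, against 18125 and 18826 bases in Control 2 and Control 3. These lengths rest on few reads, with 75 and 92 counts in cKO 2 and cKO 3, against 83.75 and 101 counts in Control 2 and Control 3. Grin2b followed at 2459 and 3094 bases in the libraries labelled cKO, against 4207 and 2770 bases in those labelled Control, far under its deposited length of 24060 bases. GENCODE M21 lists 7 transcripts of Grin2b, between 241 and 24060 bases long. Shank3 stood at 3137 and 4113 bases in cKO 2 and cKO 3, against 2996 and 2448 bases in Control 2 and Control 3, with a deposited length of 7365 bases. Homer1, whose short and long forms differ in length, stood at 4188 and 4432 bases in the libraries labelled cKO, against 3876 and 4056 bases in those labelled Control, a range of 1.14 times.

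**Figure D5:**
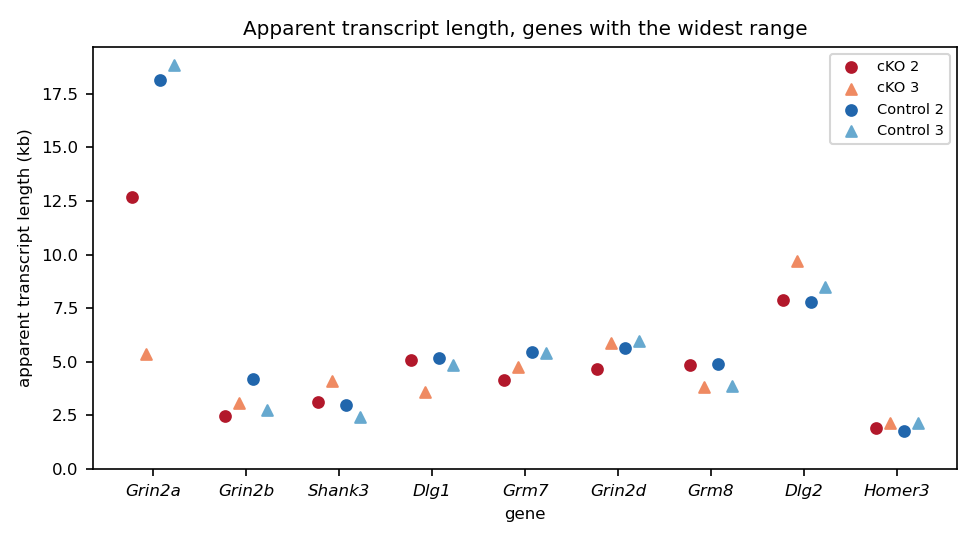
Apparent transcript length in kilobases (count over TPM, scaled to the median gene) of the 9 genes with the widest range, with 1 point per library. Grin2a, which rests on 75 to 101 counts in a library, lies at 12687 and 5380 bases in the cKO libraries and at 18125 and 18826 bases in the Control libraries.

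To show the regions from which these genes are transcribed, the 250 bases before the start site are given for Grin1 and Grik4, which lay lower, and Gria4, which lay higher (RefSeq, build GRCm38.p6, not the GRCm39 coordinates of the gene table; all 3 on the minus strand, 5′ to 3′). Grin1 lies at chr2:25319188-25319437, Grik4 at chr9:42944372-42944621 and Gria4 at chr9:4796235-4796484. Capitals mark matches on either strand to 3 motifs: TGANTCA, bound by the AP-1 factors that JNK kinases act on, the CRE half-site TGACG and the GC box GGGCGG, which do not overlap here.
Grin1: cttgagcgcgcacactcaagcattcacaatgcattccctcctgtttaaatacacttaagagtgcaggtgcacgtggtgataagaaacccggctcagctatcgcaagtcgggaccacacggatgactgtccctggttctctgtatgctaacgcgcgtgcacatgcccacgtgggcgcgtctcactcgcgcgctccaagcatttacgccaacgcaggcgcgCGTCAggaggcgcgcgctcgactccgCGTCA
Grik4: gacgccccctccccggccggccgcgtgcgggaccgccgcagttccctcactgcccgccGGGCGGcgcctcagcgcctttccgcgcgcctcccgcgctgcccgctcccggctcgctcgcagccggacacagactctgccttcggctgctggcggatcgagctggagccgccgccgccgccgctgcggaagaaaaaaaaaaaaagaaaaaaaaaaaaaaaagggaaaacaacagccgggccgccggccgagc
Gria4: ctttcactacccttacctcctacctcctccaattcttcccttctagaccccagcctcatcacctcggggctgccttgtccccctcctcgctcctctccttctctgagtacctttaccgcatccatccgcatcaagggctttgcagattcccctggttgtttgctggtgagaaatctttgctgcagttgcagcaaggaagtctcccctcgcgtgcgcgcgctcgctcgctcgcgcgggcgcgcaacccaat
The Grin1 stretch held 2 CRE half-sites, both read on the other strand as CGTCA, the Grik4 stretch held 1 GC box and the Gria4 stretch held none of the 3 motifs. Of the 38 genes 25 had promoter entries, with 39 start sites in all. For 27 of these 39 the bases after the start were found in a GENCODE M21 transcript of the gene, on the sense strand. All 39 enter the shares below. An AP-1 motif stood in 5.13% of these 39 stretches, against 6.75% of all 32851, a CRE half-site in 15.4%, against 17.8%, and a GC box in 46.2%, against 32.7%. The stretches of these genes had a median GC content of 58.8%, against 52.4% over all, and its part in the GC box share was not tested. These are matches of letters and not sites of binding.

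Further genes of the glutamatergic synapse were read from 5 lists of 111 genes, of which 110 could be tested. None passed edgeR's threshold (adjusted p from 0.333 to 0.994), and none did with DESeq2 or limma-voom. Before adjustment 9 of them with higher and 3 with lower values had a p below 0.05, 10.9% of the 110 and the same as the 10.9% of all tested genes. Their median log2 fold change was 0.03. Among 21 auxiliary subunits of AMPA and kainate receptors and their helpers, 12 were positive and 9 negative. Gsg1l, an AMPA receptor partner that dampens its current, stood at 16.1 and 21.8 CPM in cKO 2 and cKO 3, against 30.1 and 38.02 CPM in Control 2 and Control 3 (log2 fold change -0.85, SE 0.24). Neto2, an auxiliary subunit of kainate receptors, stood at 165 and 170 CPM in the libraries labelled cKO, against 130 and 122 CPM in those labelled Control (log2 fold change 0.41, SE 0.12). Shisa7 and Cacng5, both auxiliary subunits of AMPA receptors, had values of 0.67 (SE 0.19) and 0.98 (SE 0.31). For these 4 genes, picked for the smallest p of the list, the groups did not overlap, which such a pick favours. Groups did not overlap for 12 of the 21 (57.1%), against 44.1% of all tested genes.

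Among 30 further proteins of the postsynaptic density and its links, 17 were positive and 13 negative. Cask, a scaffold kinase, stood at 96.4 and 91.0 CPM in cKO 2 and cKO 3, against 70.0 and 59.2 CPM in Control 2 and Control 3 (log2 fold change 0.54, SE 0.15). Its partner Lin7c had a value of 0.48 (SE 0.15) and the scaffold gene Tanc2 one of 0.67 (SE 0.22). Dlgap3, which encodes SAPAP3, the link between PSD-95 and Shank proteins that is best known from the striatum, stood at 16.8 and 18.7 CPM in the libraries labelled cKO, against 29.3 and 25.2 CPM in those labelled Control (log2 fold change -0.62, SE 0.21). Of 32 synaptic adhesion genes 13 were positive and 19 negative, and those with the smallest p were Lrfn5, Nlgn1, Ptprf and Lrrc4, at 0.33 (SE 0.13), 0.33 (SE 0.15), 0.25 (SE 0.12) and -0.64 (SE 0.33). Of 12 tested genes of glutamate transport and metabolism 6 were positive. The cystine-glutamate exchanger gene Slc7a11 stood at 8.95 and 13.2 CPM in cKO 2 and cKO 3, against 5.96 and 5.33 CPM in Control 2 and Control 3 (log2 fold change 0.97, SE 0.33), and the glutamate uptake genes Slc1a6, Slc1a1 and Slc1a3 had values of -0.72, 0.20 and -0.18. Of 15 genes of signalling by group I receptors 11 were positive (median 0.12), with Plcb3, Itpr3, Gnaq and Prkca at 0.70 (SE 0.30), 1.27 (SE 0.65), 0.22 (SE 0.14) and 0.40 (SE 0.27).

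The libraries of 1 group did not stand alike. In cKO 2, 27 of the 37 tested genes lay below the mean of both Control libraries, with a median log2 difference of -0.21, and in cKO 3 16 did, with a median of 0.07. Over all tested genes the shares below were 51.2% in cKO 2 and 51.0% in cKO 3. Of the 37 genes, 25 were higher in cKO 3 than in cKO 2, and 10 were higher in Control 3 than in Control 2. The matching shares of all tested genes were not taken, so these counts are not read as a trait of the set. The log2 difference between cKO 2 and cKO 3 was larger than that between the group means for 17 of the 37 genes, against 55.8% of all tested genes. The difference between Control 2 and Control 3 was larger for 23 of the 37, against 47.9% of all tested genes.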

How the data were processed

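The genes, the lists and the tests were chosen with earlier results of these data known. The labels' protocols give TRIzol extraction, DNase digestion and SMART-Seq v4 libraries. This kit does not mark strand. Per the submitters' processing notes, the authors worked with DRAGEN on build GRCm39; its release, annotation and options are not given here. The authors deposited estimated counts, in part not whole for 11 of the 38 genes, and TPM values, which sum to 1e+06 in each library. The deposited gene length, 1 other value per gene, scaled the apparent lengths.

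Rounded counts were filtered by edgeR's default rule (edgeR 4.0.16, R 4.3.3), scaled by TMM and tested by quasi-likelihood with Benjamini-Hochberg adjustment over all 17017 genes, with genotype alone in the model. CPM are on TMM-scaled totals. The SE is the absolute log2 fold change over the square root of F. The p-values reflect only how these libraries vary, which may be technical. Of the 38 genes, 2 are counted but not reported here; the others are named, with Map2k7 and the 4 genes of smallest p in each further list. A tested gene on the other strand overlaps 8 of the 38. TPM entered tests only in 2 alternatives, limma 3.58.1 on log2(TPM + 1) and on log2(TPM + 0.1). The other alternatives changed the scaling (RLE, upper quartile), the filter (none, or a mean of 1 CPM), the tool (DESeq2 1.42.0, voom, robust edgeR) or the libraries (a replicate block, or each left out). The procedure was also run on simulated counts, with dispersions from this fit and with changes larger than most of those reported here. That run does not show whether smaller changes could have been called.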

Additional observations from a re-analysis of the deposited data

How the results depend on the processing

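None of the 38 genes and none of the 111 further genes was called under any of the 14 alternatives, and the direction was kept in 446 of 489 refits of single named genes. Over all genes the calls higher in cKO numbered 1 in the reported fit, 21 with no filter, 2 at a mean CPM of at least 1, 79 with DESeq2, 3 with limma-voom, 33 on log2(TPM + 1) and 23 on log2(TPM + 0.1). Those lower in cKO numbered 7, and 37 with no filter, 111 with DESeq2 and 14 on log2(TPM + 1). Leaving out single libraries gave 0 higher and 0 to 2 lower calls. The sign of the log2 fold change turned in 17 genes, Grin2c (-0.89) and Grm4 (-0.38) among them. With all 4 libraries the log2 fold change turned to 0.40 on log2(TPM + 1) and 0.82 on log2(TPM + 0.1) for Grin2a, to 0.17 for Grin2c with limma-voom, and for Grin3b to -0.78 with limma-voom, -0.66 with the replicate block and -0.31 on log2(TPM + 0.1). On log2(TPM + 1) and log2(TPM + 0.1) it turned to 0.072 and 0.076 for Grm7, and -0.028 and -0.029 for Dlg2, and on log2(TPM + 1) to -0.0013 for Homer3. Grm3 turned to -0.00064 with RLE, -0.0074 with no filter, -0.0074 with DESeq2, -0.00054 with limma-voom, -0.010 with the replicate block, -0.015 on log2(TPM + 1) and -0.016 on log2(TPM + 0.1), and Shank2 to 0.0067 with upper-quartile scaling. Leaving out single libraries, values ran from -0.028 to 0.55 for Gria3, from -0.034 to 0.51 for Grik1, from -0.21 to 0.35 for Grin2b, from -1.81 to 2.25 for Grin2c, from -0.46 to 0.16 for Grin3a, from -3.12 to 0.98 for Grin3b, from -0.21 to 0.18 for Grm3, from -0.81 to 0.24 for Grm4, from -0.71 to 0.23 for Grm7, from -0.15 to 0.19 for Slc17a6, from -0.25 to 0.028 for Dlg3, from -0.053 to 0.26 for Dlg4, from -0.13 to 0.22 for Shank1, from -0.10 to 0.031 for Shank2, and from -0.16 to 0.28 for Homer3. The cause of these turns was not tested.

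The median of the tested genes of the set was -0.21 without cKO replicate 3 and 0.10 without Control replicate 2. The share of Grin2b in the GluN2 family differed by 6.59 percentage points in TPM and by 13.3 with CPM per kilobase of the deposited length, that of Shank3 in its family by -10.4 and -2.84, that of Grm5 by 5.53 and 3.34 and that of Dlg1 by 3.86 and 1.98. With the replicate block, 0 members were called higher and 0 lower at an adjusted p below 0.05. The correlation over 17017 genes between the replicate 2 minus 3 differences of both groups was -0.0021. The summed choroid plexus markers, mostly Ttr, did split the libraries by number, but the labels give no shared animal, litter or day. The numbers were therefore not taken as pairs. Grin2c, Grin3b, Grin2a, Grm4 and Grm8 rest on few reads, and the signs of the first 4 turn on single libraries or on the unit.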
